A study of Rattus norvegicus with 8 samples.

Results

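Rat microRNAs (miRNAs) carrying a number of 3000 or above were followed in the medial vestibular nucleus (MVN) after unilateral vestibular deafferentation (UVD). Members were picked by name alone, as every non-control probe set called rno-miR-N with N of 3000 or more. This gave 111 of the 758 rat miRNAs on the array, and the remaining 647 have lower numbers or let-7 names. In UVD, the left labyrinth of male Sprague-Dawley rats aged 7 weeks was opened and destroyed with ethanol. In the sham operation (SO), which served as control, the surgery was the same but the vestibule was left unopened and no ethanol was given. The left MVN was taken 4 h or 4 d later, which gave 4 groups (UVD 4 h, UVD 4 d, SO 4 h and SO 4 d) of 2 arrays each. Each array carried total RNA pooled from 3 animals, so the spread between 2 arrays is that between 2 pools and not between animals. The labels name no altered allele, and all animals had anaesthesia and surgery. In pooled tissue RNA, fewer cells of a type and less miRNA per cell cannot be told apart.

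miRNAs are short RNAs cut from a hairpin precursor, whose arms are named 5p and 3p. The mature strand is loaded into an Argonaute protein and guides it to messenger RNAs, mainly through its seed, bases 2 to 8 from the 5′ end. Numbers are assigned in the order in which miRNAs are registered, so that the highest numbers entered the catalogue late, mostly from deep sequencing of small RNA, and few of them have a described function. Several lie on the strand opposite to an older miRNA gene, and others overlap repeats or protein-coding genes. The MVN is the brainstem relay that receives the afferents of the vestibular nerve, and loss of their input on 1 side starts the behavioural recovery known as vestibular compensation.

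The sequences below are those of 7 miRNAs and of both arms of miR-3068, the only precursor with both arms detected throughout. The 7 were lowest of the 8 arrays on both SO 4 h arrays after quantile normalization. All are mature sequences from RefSeq (assembly GRCr8), 5′ to 3′, and the capitals mark the seed.
rno-miR-3473: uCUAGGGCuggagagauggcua
rno-miR-6215: uUUAGGGUugcagagccagg
rno-miR-6216: gAUACACAgaggcaggaggagaa
rno-miR-3584-5p: gGGAGGAGuccaggaggc
rno-miR-3573-3p: uUCCUAACucugcccccucccau
rno-miR-3562: uUGGGGCAguggcuggauggga
rno-miR-3085: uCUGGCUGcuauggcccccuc
rno-miR-3068-5p: uUGGAGUUcaugcaaguucuaacca
rno-miR-3068-3p: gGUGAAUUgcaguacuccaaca

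On GRCr8, miR-3473 lies at chr13:42051730-42051751 on the plus strand, within the span of Zranb3, which encodes a DNA annealing helicase. miR-6215 lies at chr5:157133953-157133972 on the minus strand within Iffo2, and miR-6216 at chr3:65165595-65165617 on the minus strand. miR-3584-5p lies at chr1:256727582-256727599 on the minus strand within Itprip, whose protein interacts with the inositol trisphosphate receptor. miR-3573-3p lies at chrX:68299322-68299344 on the plus strand within Efnb1, the gene of the Eph receptor ligand ephrin-B1. miR-3562 lies at chr10:105848002-105848023 on the minus strand within Cep131, which encodes a centrosomal protein, and miR-3085 at chr1:251038197-251038217 on the minus strand. The gene table used gives spans without exons or strand, so exonic and intronic positions were not separated.

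Few of the late-numbered miRNAs gave a signal in the MVN. Detection was the array software's own call for each miRNA, and a miRNA without that call was written as 0.1 intensity units. Of the 111, 19 (17.1%) were detected on all 8 arrays, 15 on some and 77 (69.4%) on none. Of the 647 others, 358 (55.3%) were detected on all arrays and 236 (36.5%) on none. Each of the 758 miRNAs had 16 spots, and the probe count was 2 for 107 of the 111. A miRNA that was not detected may still be present below the reach of its probes.

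Detection varied between blocks of numbers. Of 18 miRNAs numbered 3064 to 3120, 5 were detected on all arrays and 10 on none. Of 67 numbered 3473 to 3596, 10 were detected on all arrays and 50 on none. Of 21 numbered 6314 to 6334, 2 were detected on all arrays and 15 on none. Both miR-6215 and miR-6216 were detected on all arrays. Neither arm of miR-5132 was detected throughout, and the single miRNA numbered 7578 was not detected.

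Per array, 20 to 31 of the 111 were detected. The counts were 31 and 20 in UVD 4 h, 29 and 29 in UVD 4 d, 24 and 25 in SO 4 h, and 26 and 25 in SO 4 d. The lowest count came from UVD 4 h replicate 2, which also had the fewest detected miRNAs of all kinds, 378 against 408 to 430 on the other arrays. Its lowest detected value after normalization was 6.15, against 1 to 2.92 elsewhere. Together the 111 gave 0.212% to 0.327% of an array's summed signal. All 8 arrays shared 1 slide and 1 scan, but UVD arrays lay in 1 row of the slide and SO arrays in the other. The 4 h arrays lay in columns 3 and 4 and the 4 d arrays in columns 1 and 2. Slide position thus cannot be told apart from operation or time. Cell markers fixed in lists were all detected on all 8 arrays, with miR-124-3p (neurons) between 20973 and 32519 units. The 2 miRNAs of the Hox clusters, miR-10a-5p and miR-10b-5p, summed to 691 to 770 units on the SO 4 h arrays and 244 to 364 on the other 6. In the choroid plexus and ependyma list, miR-34b-5p read 734 and 807 units on the SO 4 h arrays and miR-34c-5p 645 and 669, their lowest of 8. The rest of that list did not follow. miR-1298 read 23.8 and 23.7 in SO 4 h, above UVD 4 h (17.7 and 14.0) and SO 4 d (19.2 and 9.66). miR-204-5p read 3240 and 3986 in SO 4 h, overlapping UVD 4 h (3560 and 3842) and SO 4 d (3861 and 4281). The 4 miRNAs of the choroid plexus and ependyma list summed to 7285 to 11856 units in UVD 4 d and 4643 to 6398 elsewhere. The 3 of the leukocyte and microglia list summed to 833 to 1060 in UVD 4 d and 437 to 695 elsewhere. The 4 of the neuron list summed to 55188 to 62940 in UVD 4 d and 41548 to 50733 elsewhere. Single miRNAs departed from this. miR-34b-5p read 1121 on UVD 4 d replicate 2 against 1124 and 1152 in SO 4 d. miR-223-3p read 93.2 on UVD 4 d replicate 1 against 94.6 on UVD 4 h replicate 1. miR-138-5p read 2327 on UVD 4 d replicate 2 against 2616 and 3047 in SO 4 h. UVD 4 d replicate 1 also had the largest signal summed over all miRNAs (789972 units, others 526349 to 646920). The part of these in the results below was not tested.

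The 19 miRNAs detected on all arrays had mean signals from 10.9 to 482 units. Signals of different miRNAs also depend on their probes and were not ranked against each other. As deposited, miR-3473 read 561 and 386 units in UVD 4 h, 455 and 752 in UVD 4 d, 286 and 336 in SO 4 h, and 646 and 434 in SO 4 d. miR-6215 read 305 and 254 in UVD 4 h, 266 and 245 in UVD 4 d, 189 and 222 in SO 4 h, and 326 and 228 in SO 4 d. Both had their 2 lowest values on the SO 4 h arrays. miR-3593-3p read 69.0 and 65.8 in UVD 4 h, 73.5 and 63.1 in UVD 4 d, 62.8 and 65.9 in SO 4 h, and 62.3 and 62.5 in SO 4 d. All 8 values thus lay between 62.3 and 73.5.

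**Figure D1:**
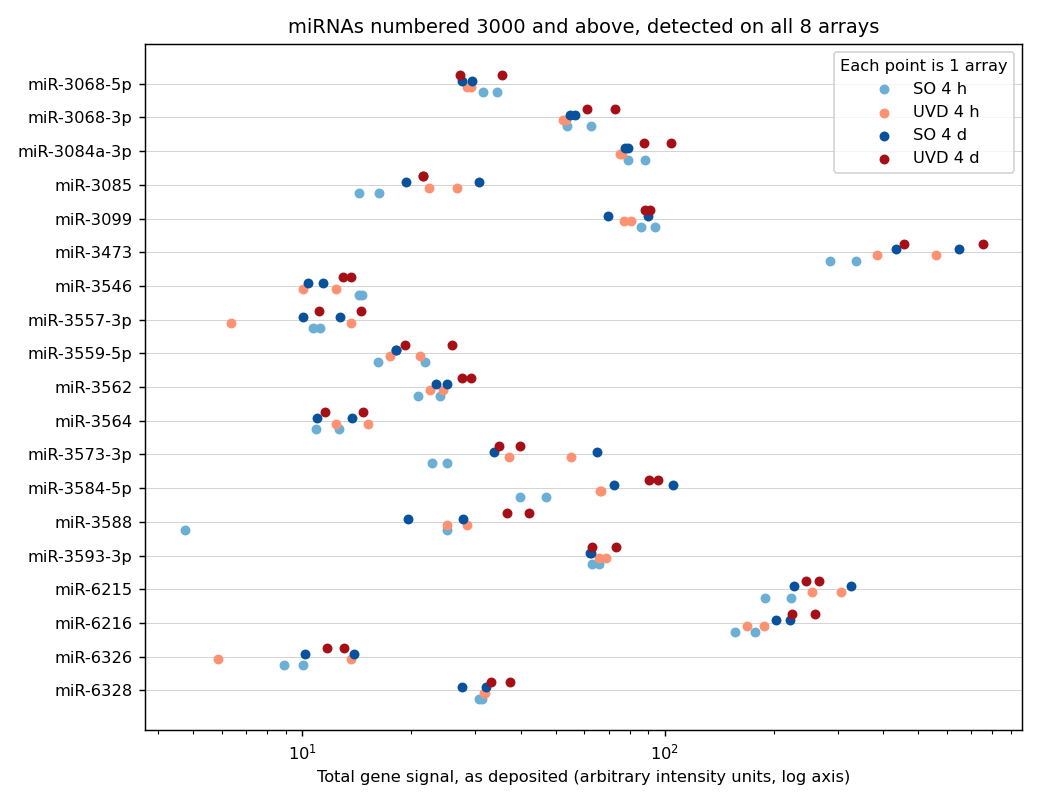
Total gene signal as deposited (x axis, arbitrary intensity units, log axis) for the 19 late-numbered miRNAs detected on all 8 arrays, ordered by number, with 1 point for each array coloured by group. The arrays of a miRNA lie close together in most rows, and the SO 4 h points sit at the low end for miR-3473, miR-3573-3p and miR-3584-5p.

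Replicate pools were compared within each group after quantile normalization, on the log2 scale. The median difference between the 2 arrays for the 19 was 0.11 in UVD 4 h, 0.19 in UVD 4 d, 0.06 in SO 4 h and 0.19 in SO 4 d. In the 358 others detected on all arrays it was 0.09, 0.12, 0.09 and 0.14 in the same order. The 19 thus differed less than the others in SO 4 h and more in the remaining groups. The widest gap was 2.24 for miR-3588 in SO 4 h, where the deposited signals were 4.75 and 25.01 units against 19.6 to 42.3 on the other 6 arrays. SO 4 h replicate 1 was thus alone in its low value for this miRNA. In UVD 4 h the widest gap was 0.70 for miR-6326, with 13.6 and 5.84 units. The lower value came from the array with the fewest detected miRNAs.

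Among 20 precursors with both arms on the array, both arms were detected on at least 1 array for 2, a single arm for 9 and neither for 9. miR-3068 was the only one with both arms on all 8 arrays. Its 5p arm read 29.3 and 28.4 units in UVD 4 h, 35.6 and 27.3 in UVD 4 d, 31.4 and 34.5 in SO 4 h, and 29.5 and 27.6 in SO 4 d. Its 3p arm read 52.2 and 53.3, 72.9 and 61.0, 53.6 and 62.5, and 56.6 and 54.7 in the same order. For each arm the range of UVD 4 d overlapped that of SO 4 h. Both UVD 4 h arrays were the lowest of the 8 for the 3p arm in the deposited signal, and after normalization they read 54.5 and 59.0 against 55.5 to 61.8 on the others, with overlap. miR-3593 was the other precursor with both arms seen, its 3p arm on all arrays and its 5p arm on 3.

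The 19 had 19 different seeds, and 0 of them shared a seed with a lower-numbered rat miRNA in the RefSeq table. They lay within the span of a protein-coding gene for 13 of 19 (68.4%), against 37 (56.1%) of the 66 undetected ones with a sequence. Median GC content was 54.5% in the 19 and 48.9% in the 66, and 47.6% in 324 other miRNAs detected on all arrays. Median G content was 30.4%, 22.7% and 23.8% in the same order. These shares are descriptions of the sequences and were not tested. A mature sequence was matched for 98 of the 111.

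The sequence of miR-3473 resembles a repeat. Its bases 5 to 21, written as DNA GGGCTGGAGAGATGGCT, also occur near the start of the rodent B2 element, a short interspersed repeat, as background knowledge has it. This stretch was found, on either strand, in 82 of 33469 RefSeq promoter windows (0.245%), each running from 250 bases before to 50 after a gene start. The same bases 5 to 21 of the other miRNAs searched were found in at most 7 windows each. Of the 17 searched among the 19, 15 had no match. The search was chosen after the sequence was seen, and a match says only that these letters occur there. No genome was searched, and whether RNA from such repeats adds to the signal of the miR-3473 probes was not tested.

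Late-numbered miRNAs that lie opposite an older miRNA were mostly undetected. For 28 of the 98 with a matched sequence, at 26 loci, the hairpin overlaps a lower-numbered hairpin on the other strand. The members without one were not searched. Of these 28, 1 was detected on all arrays (miR-3546), 3 on some (miR-3560, miR-3596a and miR-3596b) and 24 on none. Among all 98, 66 were detected on none, and among the 111, 77 (69.4%). For 27 of them a mature arm of the partner is complementary over a run of 16 to 22 bases. The partner arm was detected on all 8 arrays in 20 of these 27 pairs, and in 17 of the 20 the late-numbered strand was detected on none. The pairs below show this for a let-7, a miR-29 and an oligodendrocyte miRNA, and for both cases in which the late-numbered strand was seen in most arrays or all. Capitals mark the complementary run, read 5′ to 3′ in both strands (RefSeq).
rno-miR-3596a: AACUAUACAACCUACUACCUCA
rno-let-7a-5p: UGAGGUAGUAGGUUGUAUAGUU
rno-miR-3587: AACACUGAUUUCAAAUGGUGC
rno-miR-29b-3p: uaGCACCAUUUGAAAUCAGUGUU
rno-miR-3065-5p: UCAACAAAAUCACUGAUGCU
rno-miR-338-3p: uccAGCAUCAGUGAUUUUGUUGA
rno-miR-3546: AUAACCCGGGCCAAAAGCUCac
rno-miR-208a-5p: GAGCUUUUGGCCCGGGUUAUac
rno-miR-3560: CAAAUCCUUGCCCGGGUGCAUU
rno-miR-501-3p: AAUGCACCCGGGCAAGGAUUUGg

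let-7a-5p, an abundant miRNA of differentiated cells, read 20479 to 37660 units over the 8 arrays. Its opposite strand miR-3596a was detected on SO 4 d replicate 2 alone, at 4.78 units. miR-3587 and miR-3065-5p were detected on no array, while miR-29b-3p read 27811 to 39696 units and miR-338-3p, a miRNA of the oligodendrocyte lineage, 18039 to 28393. In 10 pairs the partner arm had a mean above 1000 units, and in 8 of them the late-numbered strand was detected on no array. The others, miR-3596a and miR-3596b, were each detected on 1 array, at 4.78 and 4.83 units. miR-3546, opposite the cardiac miR-208a in Myh6, the gene of a cardiac myosin heavy chain, read 10.1 to 14.6 units on the 8 arrays. Its partner miR-208a-5p read 24.2 to 29.3, and both strands were detected throughout. The reverse case was miR-3560, detected on 5 arrays, whose partner miR-501-3p was detected on none.

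**Figure D2:**
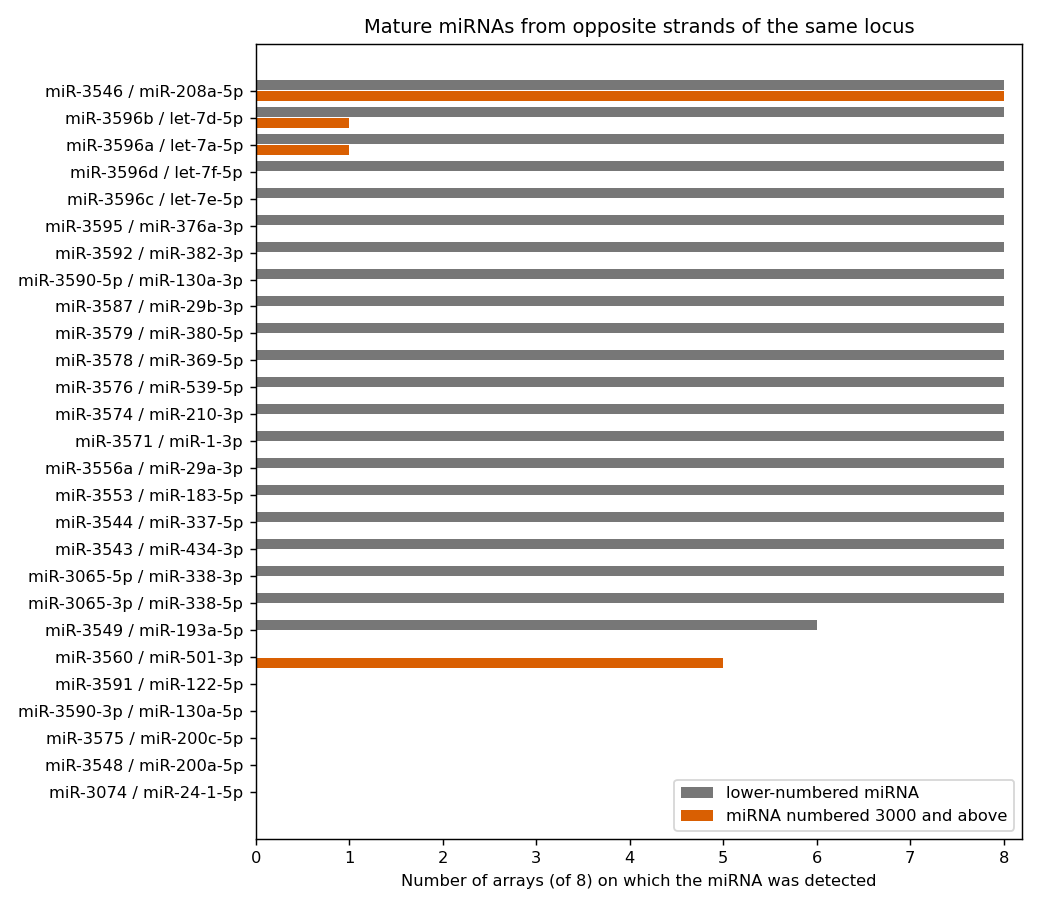
Number of arrays, of 8, on which each strand was detected (x axis), for the 27 pairs of a late-numbered miRNA (orange) and the lower-numbered mature arm complementary to it (grey); no bar means 0 arrays. Grey bars reach 8 arrays in 20 pairs, and an orange bar reaches 8 for miR-3546 only.

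Of the 15 miRNAs detected on 1 to 7 arrays, 4 were seen on UVD arrays only, 3 on SO arrays only and 8 on both. Their 57 detected values ran from 3.40 to 23.5 units, and 52 were under 12. UVD 4 h replicate 1 detected 12 of the 15 and UVD 4 h replicate 2 detected 1. Of the 4 miRNAs missing on 1 array, miR-3102, miR-3561-5p and miR-6315 were missing on UVD 4 h replicate 2. The fourth, miR-3558-3p, was missing on SO 4 h replicate 1, the array that was also low for miR-3588.

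miR-3558-3p read 17.4 and 13.7 units in UVD 4 h, 18.3 and 23.5 in UVD 4 d, 11.9 on the SO 4 h array that detected it, and 16.3 and 11.2 in SO 4 d. miR-3561-5p read 8.27 on 1 UVD 4 h array, 10.8 and 10.4 in UVD 4 d, 8.01 and 9.17 in SO 4 h, and 10.4 and 4.25 in SO 4 d. miR-6332 was detected on 1 UVD 4 h array at 10.9, on both UVD 4 d arrays at 9.08 and 8.89, on 1 SO 4 d array at 9.92, and on neither SO 4 h array. For miR-3558-3p both UVD 4 d values lay above both SO 4 d values in the deposited signal, but after normalization the groups overlapped, with 15.3 on UVD 4 d replicate 1 and 15.65 on SO 4 d replicate 1, and miR-3561-5p had its lowest detected value on an SO 4 d array.

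**Figure D3:**
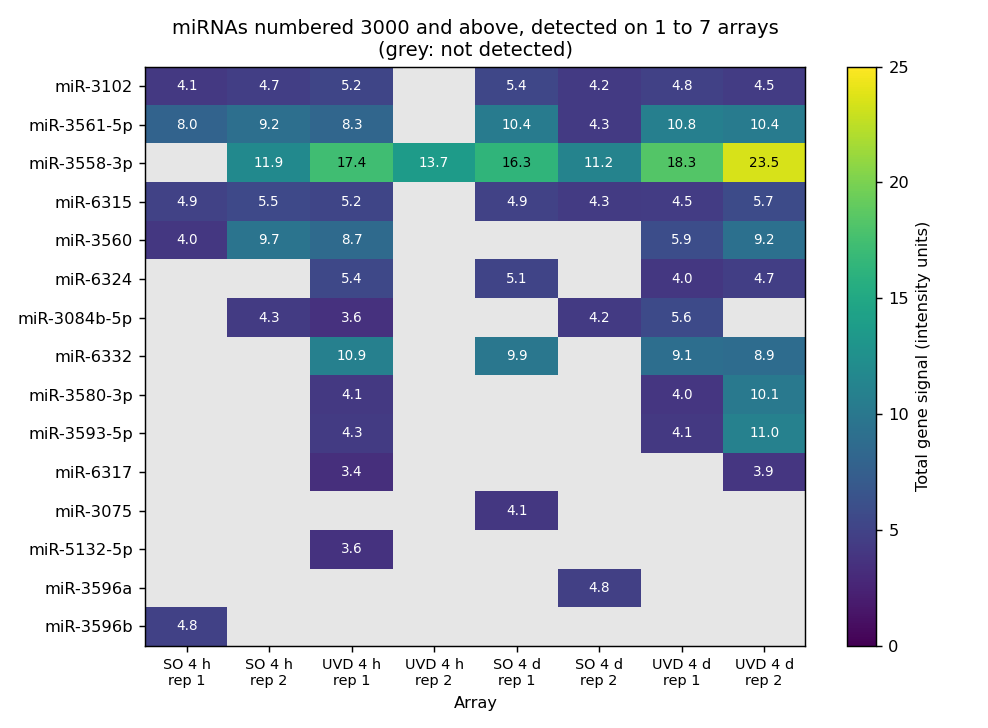
Total gene signal as deposited (colour and printed value, intensity units) for the 15 late-numbered miRNAs detected on 1 to 7 arrays (rows) on each array (columns); grey cells were not detected. The column of UVD 4 h replicate 2 has 1 detected value and that of UVD 4 h replicate 1 has 12.

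Group comparisons were made after quantile normalization, on the log2 scale, with limma. The fit covered the 422 miRNAs that were detected on each of the 2 arrays in 1 or more groups, and p-values were adjusted by the Benjamini-Hochberg method over all 422. A miRNA was called at an adjusted p under 0.05. Among the 28 late-numbered miRNAs tested, limma called 0 in UVD against SO at 4 h, where 0.474% of all tested were called, and 5 had an unadjusted p under 0.05, against 17.1% of all tested. At 4 d it called 0 (all tested, 0.00%), with 0 below 0.05 before adjustment (all tested, 3.79%). Between 4 d and 4 h it called 0 in SO (all tested, 1.66%) with 5 at an unadjusted p under 0.05 (23.7%), and 0 in UVD (0.00%) with 1 (15.4%). The difference between the time changes of UVD and SO was called for 0 (all tested, 0.237%), with 5 below 0.05 before adjustment (8.77%). After the same adjustment, the methods' t-test called 0 of the 28 in each of the 4 group comparisons. It also called 0 of all 422 in each, so these zeros are not particular to the late-numbered miRNAs. With 2 pools a group the precision is limited, and a missed threshold does not show equal levels.

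The comparisons below were read over the 19 miRNAs detected on all arrays. In UVD against SO at 4 h, the 2 arrays of each group did not overlap for 14 of the 19, against 51.5% of the 377 miRNAs detected on all arrays. Of the 14, 12 were higher in UVD and 2 lower, where 24.9% of the 377 were higher without overlap and 26.5% lower. The median log2 fold change was 0.15 in the 19 and 0.00 in all 377. At 4 d, 4 of the 19 did not overlap, against 27.9%, and the median was 0.00 against -0.03. In SO from 4 h to 4 d, 11 of the 19 did not overlap, against 57.0%, with a median of 0.07 against 0.01. In UVD from 4 h to 4 d, 8 did not overlap, against 46.4%, with a median of -0.01 against -0.04. The 4 h comparison and the time comparison of SO both use the SO 4 h arrays.

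**Figure D4:**
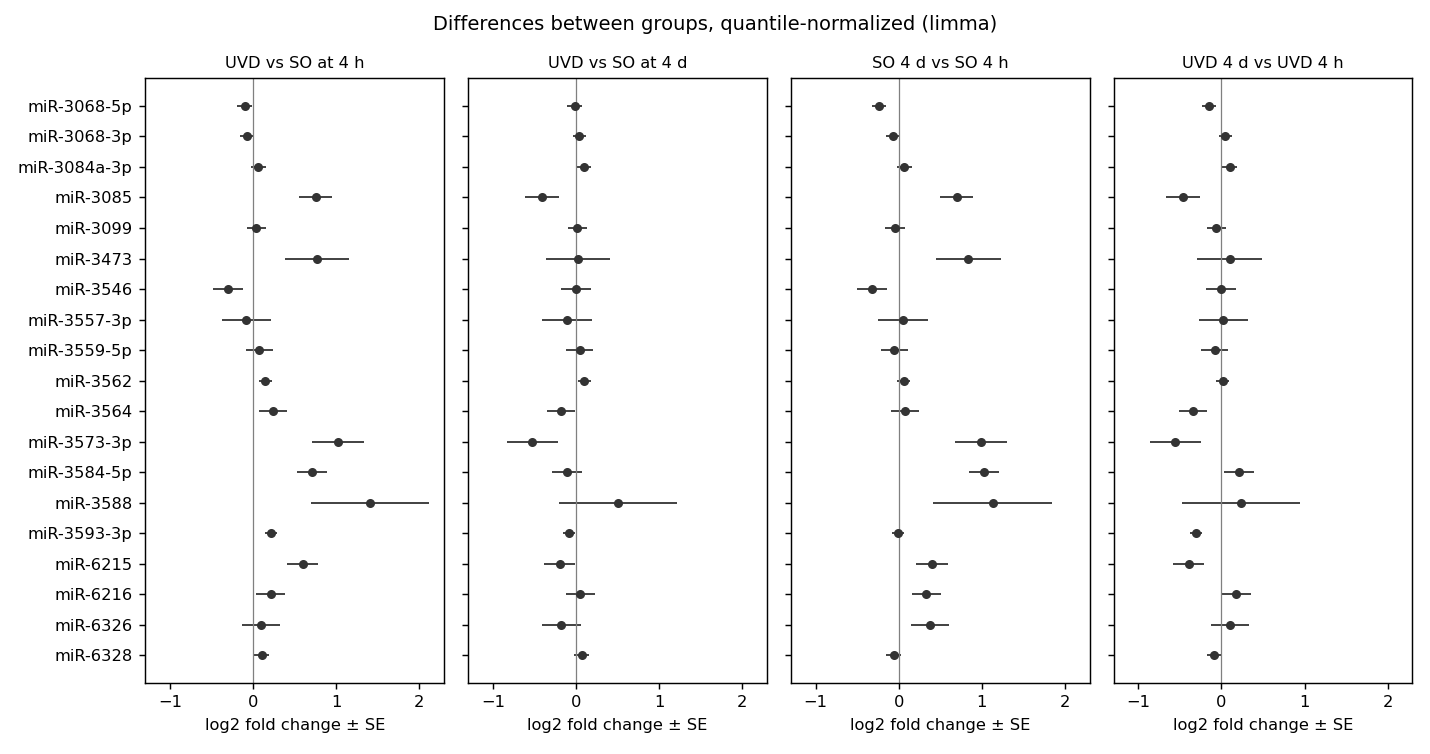
log2 fold change with its SE (x axis, limma on quantile-normalized intensity) for the 19 late-numbered miRNAs detected on all arrays, in 4 comparisons of 2 arrays against 2. miR-3584-5p, miR-3573-3p, miR-3085 and miR-3473 lie to the right in UVD against SO at 4 h and in SO 4 d against SO 4 h, and none of the 19 was called.

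The next set was picked from the values. For 7 of the 19 (miR-3085, miR-3473, miR-3562, miR-3573-3p, miR-3584-5p, miR-6215 and miR-6216) both SO 4 h arrays were the lowest of the 8 after normalization, which held for 13.5% of the 377. Both SO 4 h arrays were the highest for none of the 19, where 18.6% of the 377 had this. The 7 had a median G content of 40.0%, against 25.6% in the other 12 of the 19. Within the 7 it ran from 4.35% in miR-3573-3p and 23.8% in miR-3085 to 55.6% in miR-3584-5p. Whether G content goes with the pattern was not tested.

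The normalized intensity of miR-3584-5p was 72.9 and 76.5 in UVD 4 h, 75.8 and 98.4 in UVD 4 d, 46.0 and 45.3 in SO 4 h, and 107 and 80.5 in SO 4 d. The SO 4 h arrays were below all others without overlap. Its log2 fold change from 4 h to 4 d in SO was 1.02 (SE 0.18, adjusted p = 0.0872), the smallest adjusted p among the 28 in any comparison, and in UVD against SO at 4 h it was 0.71 (SE 0.18, adjusted p = 0.219). Over 18 alternatives the values ran from 0.50 to 1.23 and from 0.32 to 0.89.

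For miR-3573-3p the normalized intensity was 58.4 and 41.1 in UVD 4 h, 33.3 and 33.4 in UVD 4 d, 24.4 and 23.9 in SO 4 h, and 64.3 and 35.9 in SO 4 d. SO 4 h was again lowest, while the SO 4 d pools lay far apart. The log2 fold change was 0.99 (SE 0.31, adjusted p = 0.164) in SO over time and 1.02 (SE 0.31, adjusted p = 0.247) in UVD against SO at 4 h. For miR-3085 the intensity was 28.5 and 24.4, 17.7 and 20.7, 15.7 and 15.7, and 30.7 and 20.95 in the same order of groups. Its log2 fold change was 0.70 (SE 0.20, adjusted p = 0.153) and 0.75 (SE 0.20, adjusted p = 0.247) in the same 2 comparisons. Over 18 alternatives, miR-3573-3p ran from 0.29 to 1.43 and from 0.32 to 1.28, and miR-3085 from 0.15 to 0.95 and from 0.16 to 0.94. The difference between the time changes was -1.16 (SE 0.29, adjusted p = 0.402) for miR-3085 and -1.55 (SE 0.44, adjusted p = 0.492) for miR-3573-3p.

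miR-3473 had a normalized intensity of 510 ± 146 in UVD 4 h, 566 ± 263 in UVD 4 d, 293 ± 6.09 in SO 4 h and 532 ± 125 in SO 4 d (mean ± SD, n = 2 each). After normalization the 3 higher groups had a spread many times that of SO 4 h. In the deposited signal the gap was smaller, with SDs of 124 in UVD 4 h, 210 in UVD 4 d and 150 in SO 4 d against 36.0 in SO 4 h. The log2 fold change was 0.77 (SE 0.39, adjusted p = 0.384) in UVD against SO at 4 h and 0.84 (SE 0.39, adjusted p = 0.274) in SO over time, and over 18 alternatives it ran from 0.47 to 1.05 and from 0.57 to 1.08. miR-6215 was at 311 ± 45.8, 236 ± 17.3, 204 ± 6.24 and 274 ± 63.1, and miR-6216 at 197 ± 24.7, 224 ± 52.4, 169.7 ± 1.85 and 214 ± 7.15, in the same order. miR-3562 moved least, from 23.0 ± 0.30 in SO 4 h to 25.8 ± 2.37 in UVD 4 d.

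**Figure D5:**
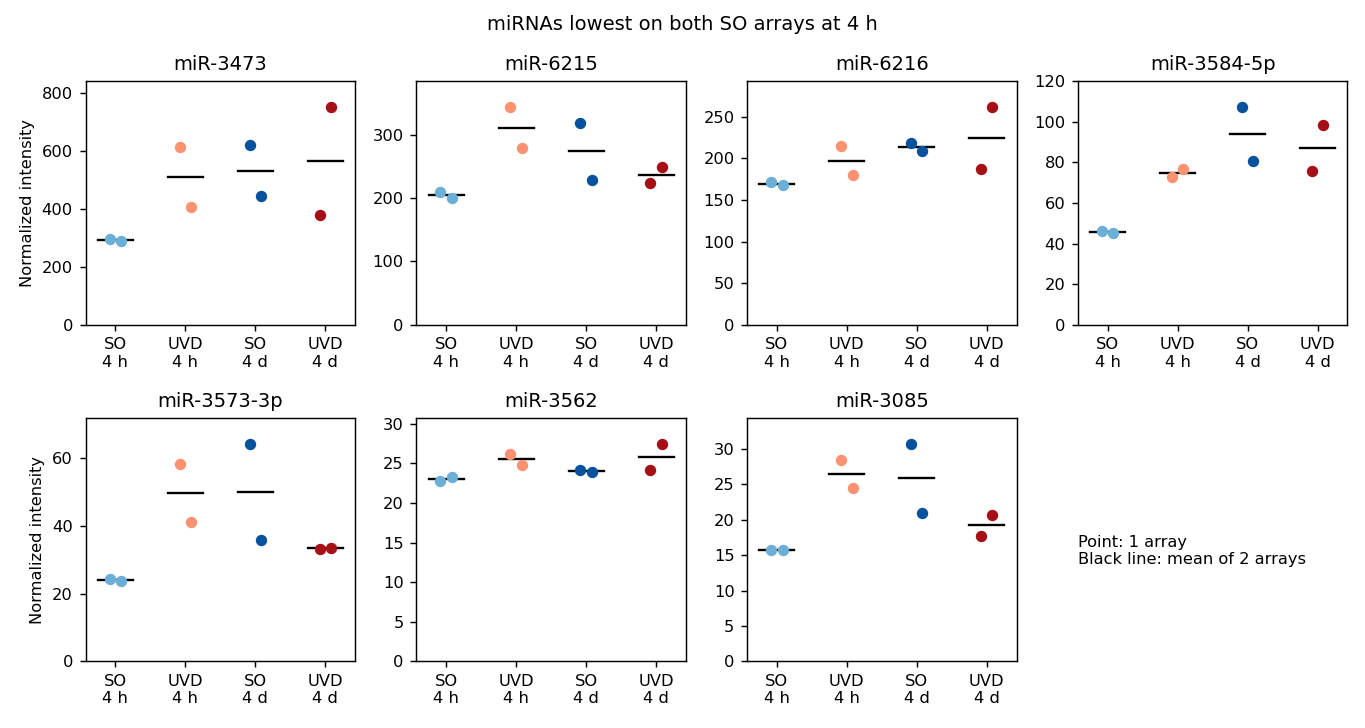
Normalized intensity (y axis, from 0) of the 7 miRNAs whose SO 4 h arrays were both the lowest of 8, by group (x axis), with 1 point for each array and a line at the mean of 2 arrays. The SO 4 h pairs lie close together below the other groups, by little in miR-3562 and miR-6216, and no group difference was called.

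How many of the 19 had this pattern depended on the scaling, as did its background. In the signals as deposited it held for 5 of 19 against 5.31% of the 377. These 5 were among the 7, and miR-3562 and miR-6216 did not have it. It held for 8 against 31.8% with the 75th percentile of the miRNAs detected on all arrays, and for 11 against 43.0% with that of all miRNAs. In the authors' normalized values it held for 6 against 12.7%, of which 5 were among the 7. The 75th percentile scalings moved the median of all miRNAs to 0.12 and 0.15 in UVD against SO at 4 h, where the 19 had medians of 0.30 and 0.33.

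Outside these 7, miR-3593-3p had a normalized intensity of 74.9 on both UVD 4 h arrays, 62.6 and 58.4 in UVD 4 d, 66.2 and 62.6 in SO 4 h, and 61.1 and 67.3 in SO 4 d. After normalization UVD 4 h was the highest group without overlap. This held for 3 of the 19 (miR-3593-3p, miR-3564 and miR-6328) and for 9 of the 377. Equal normalized values on both UVD 4 h arrays were found for 50 of the 422 tested miRNAs. As deposited, the UVD 4 h signals of miR-3593-3p (69.0 and 65.8) overlapped those of UVD 4 d (73.5 and 63.1) and SO 4 h (62.8 and 65.9). Its log2 fold change was -0.31 (SE 0.07, adjusted p = 0.218) from 4 h to 4 d in UVD and 0.22 (SE 0.07, adjusted p = 0.247) in UVD against SO at 4 h. miR-3588 had 1.41 (SE 0.71, adjusted p = 0.384) in UVD against SO at 4 h. This was 0.29 without its single low SO 4 h array and became 2.54 without the other.

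3 of the partly detected miRNAs were detected on both arrays of a group and on neither SO 4 d array. As deposited, miR-3560 read 4.04 and 9.66 units in SO 4 h and 5.93 and 9.24 in UVD 4 d. miR-3593-5p read 4.11 and 11.001 units in UVD 4 d, and miR-3580-3p read 3.97 and 10.1. The fitted changes below are not measured folds, because an array that missed a miRNA holds no level for it. Their SO 4 d arrays were set to 1. In UVD 4 d against SO 4 d the fitted log2 fold changes of miR-3560, miR-3593-5p and miR-3580-3p were 2.52 (SE 1.03), 2.22 (SE 0.90) and 1.87 (SE 1.00), each with an adjusted p of 0.745. With the authors' normalized values they were 0.0080, 0.12 and 0.13. In SO over time the fitted value of miR-3560 was -2.68 (SE 1.03, adjusted p = 0.201), and -0.029 with the authors' values.

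The largest fitted changes were those of partly detected miRNAs, and a fitted change of a miRNA that was not detected on an array depends on the value of 1 set for that array. miR-3558-3p had a log2 fold change of 2.31 (SE 1.10, adjusted p = 0.370) in UVD against SO at 4 h and 2.11 (SE 1.10, adjusted p = 0.324) in SO over time. With the authors' values these were 0.25 and 0.20. Without SO 4 h replicate 2 they became 4.04 and 3.83, where only the array that missed it was left. Without SO 4 h replicate 1 they were 0.57 and 0.38.

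miR-3561-5p, missed on UVD 4 h replicate 2, had 1.74 (SE 0.96, adjusted p = 0.413) in UVD over time and -1.75 (SE 0.96, adjusted p = 0.415) in UVD against SO at 4 h. These were 0.013 and -0.044 with the authors' values, 0.30 and -0.30 without UVD 4 h replicate 2, and 3.16 and -3.16 without UVD 4 h replicate 1. miR-6332 had 1.09 (SE 1.45, adjusted p = 0.747) in UVD over time, 1.59 (SE 1.45, adjusted p = 0.559) in SO over time and 1.71 (SE 1.45, adjusted p = 0.597) in UVD against SO at 4 h. Both SO 4 h arrays missed it.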

How the data were processed

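The authors hybridized Cy3-labelled total RNA to 1-colour Agilent rat miRNA arrays and deposited the Feature Extraction 10.7.3.1 output, in which the total gene signal is an intensity on a linear scale, summed over a miRNA's probes after background correction. A deposited table of the authors' quantile-normalized intensity, on a linear scale with a median of 45.5 on each array, served as an alternative, and which signal the authors normalized is not given in the sources used here. Here 715 control spots were left out, the total gene signal of 8 arrays was quantile normalized, values under 1 were set to 1, and log2 values were fitted with limma 3.58.1 (lmFit and eBayes, R 4.3.3, 4 group means). A miRNA was tested where a group had it detected on each of its 2 arrays. The fit was tested on simulated data. The median spot background was 21.5 to 25 units. The miRNAs named are all those detected on every array, any called, the 3 with the largest fold change in each comparison, and those described after their values were seen. The members and lists were chosen with earlier results of these data known. Sequences, seeds and gene spans came from RefSeq (GRCr8) tables. Alternatives were 2 percentile scalings, normexp, the authors' values, a floor of 0.1, other detection filters, another variance model, the t-test, a replicate block and leaving out each array.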

Additional observations from a re-analysis of the deposited data

How the results depend on the processing

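Under 18 alternatives, the 0 calls among late-numbered miRNAs in UVD against SO at 4 d stayed 0. In SO 4 d against SO 4 h, limma on the authors' normalized values called 19 of the 422 tested. Of these, 1 was late-numbered, miR-3584-5p, with a log2 fold change of 0.58 (adjusted p = 0.0310). With a trended and robust variance limma called 8 of the 422, of which 1 was again miR-3584-5p, at 1.02 (adjusted p = 0.0184). The cause was not tested. Leaving out each array in turn left 1 array in a group, so only fold changes are given for those fits. Without UVD 4 h replicate 1, the array that was left had missed miR-3102 and miR-6315. Their log2 fold changes were then 1.76 and 1.85 in UVD over time, and -2.10 and -2.37 in UVD against SO at 4 h. Without SO 4 h replicate 2, miR-3558-3p and miR-3588 had 4.04 and 2.54 in UVD against SO at 4 h. The lone array of a group was assumed to vary like the other groups. The log2 fold change of miR-6332 in UVD over time reversed to -0.046 with the authors' values and -0.019 with normexp, and ranged from -0.57 (without UVD 4 h replicate 2) to 2.76 (without UVD 4 h replicate 1) when an array was left out. With the replicate number as a block, 0 were called in each comparison, where 0 to 2 of all tested were called. Deviations of same-numbered arrays correlated between -0.25 and 0.19, so the numbers did not pair the samples. Replicate numbers follow the sample titles, since the source names give both arrays of a group the same number. Detection on all arrays held for 19 to 22 miRNAs when an array was left out (22 without UVD 4 h replicate 2), and 34 were detected on at least 1 array and 28 on both arrays of a group. A slide or scan block could not be fitted with 1 slide and 1 scan. Signals close to the detection limit and 2 pools a group limit what can be seen.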
